A study of Homo sapiens with 6 samples.

Results

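The AP-1 and immediate early genes described here are FOS, FOSB, FOSL1, JUN, JUNB, JUND, ATF3, EGR1, IER2 and IER3. They were chosen by name, and all 10 were found among the 22411 genes measured. The members were measured in RH30 cells, an established human alveolar rhabdomyosarcoma line grown in DMEM with serum. RH30-IκBα SR cells (3 arrays) carried a pBabe-puro retroviral transgene for the IκBα super repressor (SR), an IκBα that cannot be degraded on signal and so holds classical NF-κB outside the nucleus. RH30 vector cells (3 arrays) carried the vector without it. No stimulus such as TNF was named for the arrays. The paper's methods do not give the density of the cultures or the time since feeding at harvest, on which levels of immediate early genes can depend. Whether each stable line was a clone or a pool is not given in the sources used here, and with 1 line of each kind a difference between the lines cannot be told apart from the effect of the transgene. The design text states that each group was cultured in triplicate.

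AP-1 is a dimer of bZIP proteins, built from a Jun protein (JUN, JUNB, JUND) and a Fos protein (FOS, FOSB, FOSL1) or an ATF protein such as ATF3. Immediate early genes are switched on within minutes of a growth factor, cytokine or stress signal without new protein synthesis, largely through MAP kinases and the serum response factor SRF, and most of their mRNAs are short-lived. EGR1 encodes a zinc finger transcription factor of this class, and IER2 and IER3 encode further early response proteins. AP-1 and NF-κB share upstream signals, and many inflammatory promoters bind both.

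The labels were checked first with NFKBIA, the IκBα gene. It had 13.55, 13.74 and 13.57 on the log2 scale in IκBα SR arrays, against 11.61, 11.66 and 11.58 in vector arrays. The muscle lineage markers MYOD1, DES and MYOG were well above the median gene (5.13) on all arrays, with DES between 15.66 and 15.75 in IκBα SR arrays and at 14.71 in vector arrays. Of 13 muscle and rhabdomyosarcoma markers, 5 were higher in IκBα SR cells and 3 were lower, and MYF6 lay below the median gene. The summed linear level of the 13 markers, given as log2, lay between 16.62 and 16.79 in IκBα SR arrays and between 16.00 and 16.02 in vector arrays. DES and CHRNA1, the brightest, weigh most in this sum, and the lower genes MYOG, MYF5 and MYCN weigh less, so it is a rough description. DES and CHRNA1 each had 1 repeated value on all 3 vector arrays, and the narrow range of the vector sums rests in part on these. The part of these markers in the results below was not tested. Of 11 measured markers of blood, endothelial, epithelial, liver and glial cells, 10 lay below the median gene. Of these 10, PECAM1 was lower in IκBα SR cells. The sums of the 11 lay between 7.99 and 8.15 in IκBα SR arrays and between 8.21 and 8.28 in vector arrays. KRT8, the marker above the median gene, weighs most in these sums. It lay between 6.31 and 6.76 in IκBα SR arrays and between 6.83 and 7.03 in vector arrays. All levels below are the log2 values deposited by the authors, made with RMA, which corrects, normalizes and summarizes the probe signals. Changes are compared between groups for 1 gene at a time, since the levels of different genes on an array are not on a common scale. The sums above and the place of a gene against the median gene are thus rough guides to level only. The RNA came from bulk cultures, so fewer cells that express a gene and less of its RNA per cell cannot be told apart.

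EGR1 and ATF3 were higher in IκBα SR cells and FOSL1 was lower, while the other 7 genes did not pass the test. These were 3 of 10 genes past a threshold of 0.05 on the adjusted p of limma, with Benjamini-Hochberg adjustment over the whole table, beside 18.3% of all genes measured (9.76% higher and 8.58% lower). This share over all genes counts dim genes and 1564 genes with identical values on all arrays. A fit without genes below the median gene tested fewer genes, yet passed 4521, against 4110 in the whole table. The share called was thus higher among brighter genes, and only 2 of the 10 lay below the median gene. The 18.3% is therefore not the share among genes of like level, and 3 of 10 cannot be read as more than that share. The arrays of both groups lay apart in 5 of the 10 genes, beside 29.6% of all genes. IκBα SR arrays were above vector arrays for EGR1 and ATF3 (15.2% of all genes had this order), and below them for FOSL1, JUN and JUNB (14.4% of all genes). For each of these 5 genes an exact 2-sided permutation test of the arrays gave p = 0.1, the smallest that 3 against 3 can give. The median log2 fold change of the 10 genes was 0.02, beside 0.0 over all genes, so the family had no common direction.

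**Figure D1:**
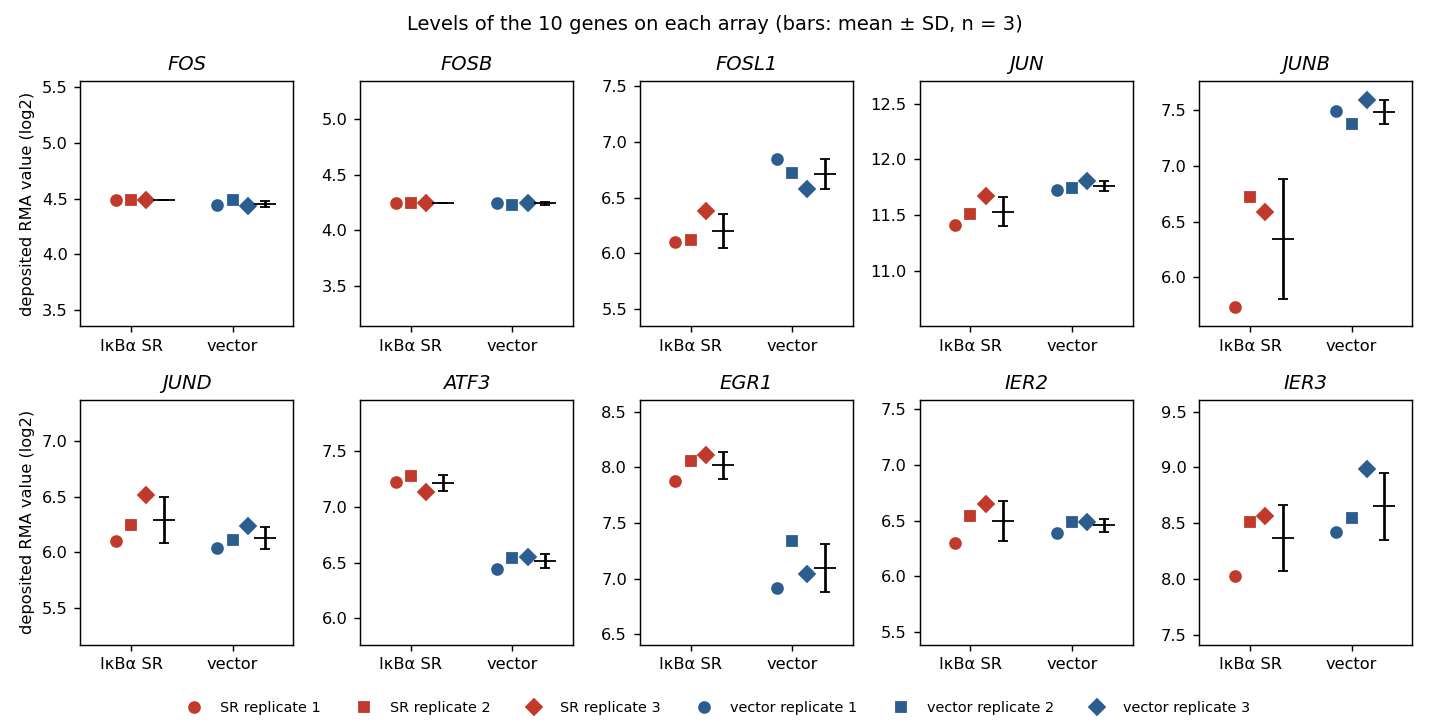
Deposited log2 values of the 10 genes on each array, with 1 panel per gene, IκBα SR arrays on the left and vector arrays on the right; symbols mark the replicate number and black bars the mean ± SD (n = 3 arrays). The groups are apart for EGR1, ATF3, FOSL1, JUN and JUNB, IκBα SR replicate 1 lies far below the other IκBα SR arrays for JUNB, and FOS and FOSB are flat.

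EGR1 had the largest change among the genes that passed. It had 7.88, 8.06 and 8.11 in IκBα SR arrays, against 6.91, 7.34 and 7.04 in vector arrays. The lowest IκBα SR array was thus above the highest vector array. The means were 8.02 ± 0.12 in IκBα SR cells and 7.10 ± 0.22 in vector cells (SD, n = 3 each), a level 1.89 times that of vector cells. The log2 fold change was 0.92 (standard error 0.13, 95% interval 0.57 to 1.28, adjusted p = 0.012 from limma). The direction held with each array left out, but the call was lost in 3 of these 6 fits, where limma gave an adjusted p of 0.057 on leaving out replicate 2 of IκBα SR, 0.055 on leaving out its replicate 3, and 0.051 on leaving out replicate 3 of vector.

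EGR1 is a classical target of SRF, which binds the CArG box, a short AT-rich element. SRF itself was higher in IκBα SR cells, with 8.51, 8.61 and 8.58 against 8.21, 8.19 and 8.08 in vector arrays (log2 fold change 0.41, limma adjusted p = 0.0064). The part of SRF in the change of EGR1 was not tested. The promoter of EGR1 is shown for its CArG boxes, the promoters of ATF3 and JUN because they share an element bound by Jun and ATF proteins, and that of JUNB because it had the largest difference of the 10 genes. Each is the 250 bases before the RefSeq start site used for the gene on GRCh38.p14, written 5′ to 3′ on the strand of the gene. They lie at chr5:138465229-138465478 (EGR1, plus strand), chr1:212565157-212565406 (ATF3, plus strand), chr1:58784048-58784297 (JUN, minus strand) and chr19:12791236-12791485 (JUNB, plus strand). Capitals mark CArG boxes, TGACNTCA, and TGACG or its reverse complement CGTCA, which is a core of the cAMP response element.
EGR1 promoter: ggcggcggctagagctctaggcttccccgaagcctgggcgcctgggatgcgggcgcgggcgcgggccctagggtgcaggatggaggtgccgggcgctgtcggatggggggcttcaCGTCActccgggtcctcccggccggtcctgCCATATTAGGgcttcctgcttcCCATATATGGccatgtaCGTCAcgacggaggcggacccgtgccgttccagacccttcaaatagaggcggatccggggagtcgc
ATF3 promoter: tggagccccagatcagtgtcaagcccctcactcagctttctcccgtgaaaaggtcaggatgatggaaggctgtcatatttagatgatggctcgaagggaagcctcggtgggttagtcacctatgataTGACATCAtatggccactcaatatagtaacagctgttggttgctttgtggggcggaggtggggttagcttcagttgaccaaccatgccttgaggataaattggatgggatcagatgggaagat
JUN promoter: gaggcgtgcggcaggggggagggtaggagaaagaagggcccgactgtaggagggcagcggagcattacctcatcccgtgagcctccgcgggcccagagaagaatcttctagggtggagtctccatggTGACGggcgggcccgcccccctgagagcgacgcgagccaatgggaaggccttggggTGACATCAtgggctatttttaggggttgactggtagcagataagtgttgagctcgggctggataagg
JUNB promoter: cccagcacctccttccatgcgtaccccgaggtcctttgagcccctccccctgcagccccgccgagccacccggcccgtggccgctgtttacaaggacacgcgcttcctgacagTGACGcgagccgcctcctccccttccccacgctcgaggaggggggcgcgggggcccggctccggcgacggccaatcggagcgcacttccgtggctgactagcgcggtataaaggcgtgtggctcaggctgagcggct

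These promoter windows came from RefSeq, which had 8 of the 10 genes in the table used here; FOSL1 and IER3 were not among them. Both strands were searched for TGANTCA (an AP-1 site), TGACNTCA, TGACG, the CArG box and the κB site, where TGACNTCA and TGACG can overlap. The EGR1 window held 2 CArG boxes, CCATATTAGG from 105 to 96 bases before the start and CCATATATGG from 83 to 74 bases before it. Within these windows, EGR1 was the 1 gene of the 8 with a CArG box. A CArG box was held by 1.14% of 27305 promoter windows of the same length. Bases farther from the start were not searched, so a CArG box there, in FOS or any other of these genes, would have been missed. Promoters at other start sites, of ATF3 or any other of these genes, were not searched either. The matches and their absence hold for the windows used only. TGACATCA, a match to TGACNTCA, stood from 123 to 116 bases before the start of ATF3 and from 67 to 60 bases before that of JUN, and JUND held TGACGTCA. A match to TGACNTCA was held by 7.09% of all windows. The shorter TGACG was in 7 of the 8 windows (FOS, FOSB, JUN, JUNB, JUND, EGR1 and IER2), beside 21.7% of all windows. None of the 8 windows held TGANTCA (6.6% of all windows) or a κB site (5.05% of all windows). A match is a description of the letters in the window and not a bound site.

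ATF3 encodes a stress-induced bZIP protein that forms dimers with Jun proteins and often represses transcription. It had 7.23, 7.28 and 7.13 in IκBα SR arrays, against 6.44, 6.55 and 6.55 in vector arrays. Each group held within a narrow band and the bands were far apart. The log2 fold change was 0.70 (standard error 0.05, 95% interval 0.56 to 0.84, adjusted p = 0.0015 from limma), or 1.63 times the vector level. It passed the test in all 16 alternatives run, though those that changed the use of features had the same values for ATF3, which has 1 feature.

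Of the 20 nearest measured protein-coding genes around ATF3 on chromosome 1, 10 on each side, 11 were also higher in IκBα SR cells and none was lower. Their log2 fold changes ran from -0.36 to 1.28 with a median of 0.37, so the value of ATF3 lay within the range of its neighbors. DTL, 4 genes before ATF3, had 0.82 and FLVCR1 had 1.28, while BATF3, itself a bZIP partner of Jun proteins and the second gene after ATF3, had -0.02. The part of this stretch in the change of ATF3 was not tested. Of the 20 neighbors of EGR1 on chromosome 5 none passed the test, and their log2 fold changes lay between -0.11 and 0.13.

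**Figure D2:**
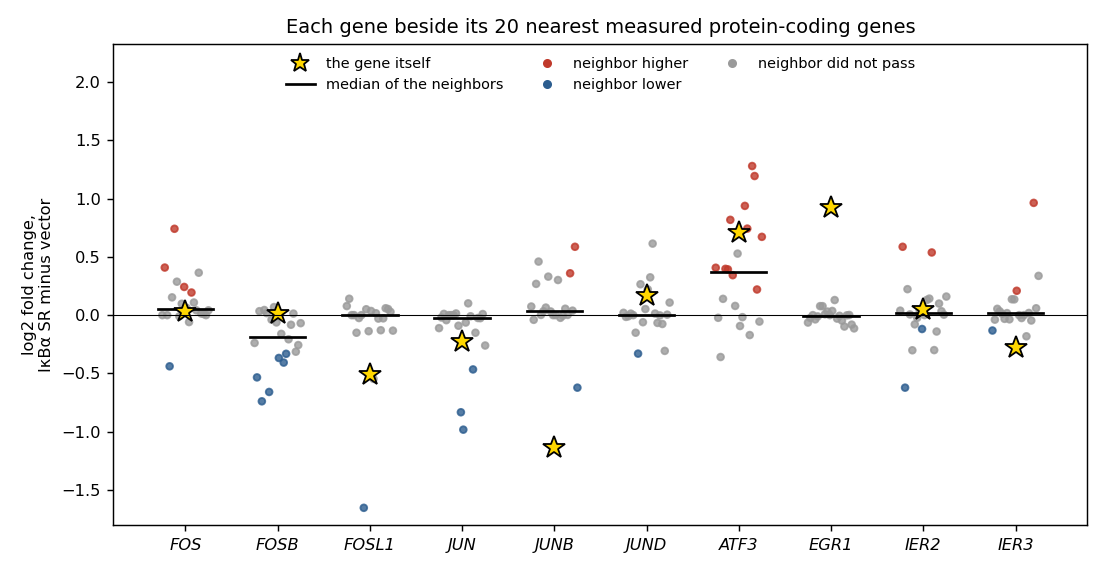
Log2 fold change (IκBα SR minus vector) of each of the 10 genes (star) and of its 20 nearest measured protein-coding genes (points, spread sideways for view, with their median as a line); red and blue points passed the test as higher and lower. EGR1 (0.92) stands outside neighbors that lie between -0.11 and 0.13, whereas ATF3 (0.70) lies among neighbors of which 11 were higher.

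Among the Fos family, FOSL1 was lower in IκBα SR cells and FOS and FOSB did not pass the test. FOSL1 encodes FRA1, a Fos protein that lacks the strong activation domain of FOS. It had 6.10, 6.12 and 6.38 in IκBα SR arrays, against 6.84, 6.72 and 6.57 in vector arrays. The closest arrays, IκBα SR replicate 3 and vector replicate 3, were still in the order of their groups. The log2 fold change was -0.51 (standard error 0.11, 95% interval -0.80 to -0.22, adjusted p = 0.040 from limma), which is 0.701 times the vector level. This call was close to the threshold. It was lost on leaving out either IκBα SR replicate 1 or 2 or any 1 vector array, with adjusted p between 0.056 and 0.14 from limma, and with the methods' t-test after Benjamini-Hochberg adjustment (adjusted p = 0.067 over all genes). Of the 20 neighbors of FOSL1 on chromosome 11, 1 was lower and none was higher, with a median of 0.0.

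FOS, the founding Fos gene, had the same value of 4.49 on all 3 IκBα SR arrays, against 4.44, 4.49 and 4.44 in vector arrays. FOSB had 4.25 on all 3 IκBα SR arrays, against 4.25, 4.23 and 4.25 in vector arrays. Both lay below the median gene (5.13) in both groups, and the same values recurred across arrays. The log2 fold changes were 0.03 for FOS (95% interval -0.01 to 0.07) and 0.01 for FOSB (95% interval -0.01 to 0.03), and these narrow intervals rest on the repeated values. JDP2, a bZIP gene next to FOS on chromosome 14, also did not pass (log2 fold change 0.06, adjusted p = 0.57).

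FOSL2, the remaining Fos gene, is not among the 10 and was taken from the list of other bZIP partners. It encodes FRA2. It had 8.64, 8.71 and 8.77 in IκBα SR arrays, against 9.47, 9.54 and 9.46 in vector arrays (log2 fold change -0.78, adjusted p = 6.8e-04). Both FRA genes, FOSL1 and FOSL2, were thus lower in IκBα SR cells, on different chromosomes. Of the 20 neighbors of FOSL2 on chromosome 2, 9 were also lower and none was higher (median -0.27), and their part in its change was not tested.

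In the Jun family, JUNB had the largest difference of all 10 genes and did not pass the test. JUNB encodes a Jun protein that often opposes JUN in growth control. It had 5.73, 6.72 and 6.58 in IκBα SR arrays, against 7.49, 7.38 and 7.60 in vector arrays. Every IκBα SR array was lower than every vector array, and IκBα SR replicate 1 lay well below the other IκBα SR arrays. The log2 fold change was -1.14 (standard error 0.30, 95% interval -1.92 to -0.37, adjusted p = 0.069 from limma), which is 0.453 times the vector level. Without IκBα SR replicate 1 the difference was smaller, -0.84, and it passed the test (adjusted p = 0.015 from limma). The remaining IκBα SR arrays were close together. JUNB also passed in 4 other of the 16 alternatives, among them a further quantile normalization (adjusted p = 0.030 from limma) and centering on array medians (adjusted p = 0.033 from limma). Of the 20 neighbors of JUNB on chromosome 19, 2 were higher and 1 was lower, with a median of 0.04.

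JUN, which encodes c-Jun, had 11.41, 11.51 and 11.67 in IκBα SR arrays, against 11.72, 11.74 and 11.81 in vector arrays. The groups did not overlap, yet the gap between the closest arrays was small. The log2 fold change was -0.23 (95% interval -0.42 to -0.03, adjusted p = 0.13 from limma). Of the 20 neighbors of JUN on chromosome 1, 3 were lower and none was higher (median -0.03). Among the lower ones were the genes on either side of JUN, MYSM1 (-0.83) and FGGY (-0.98). The part of these neighbors in the change of JUN was not tested. JUND, the Jun gene that is expressed most evenly across tissues, had 6.11, 6.25 and 6.52 in IκBα SR arrays and 6.04, 6.11 and 6.23 in vector arrays. These arrays overlapped, with a log2 fold change of 0.16 (95% interval -0.17 to 0.49, adjusted p = 0.54 from limma).

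IER2 encodes a nuclear protein of the early serum response, and IER3 (IEX-1) a protein that modulates cell survival and is known as an NF-κB target. Neither passed the test. IER2 had 6.30, 6.54 and 6.65 in IκBα SR arrays and 6.39, 6.49 and 6.49 in vector arrays, so that the IκBα SR arrays spanned the vector arrays (log2 fold change 0.04, 95% interval -0.22 to 0.30). IER3 lay between 8.03 and 8.57 in IκBα SR arrays and between 8.42 and 8.99 in vector arrays. These ranges overlapped, and the log2 fold change was -0.28 (95% interval -0.88 to 0.32, adjusted p = 0.56 from limma).

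IER3 was the 1 gene of the 10 with several features on the array, 6 in all. It lies in the major histocompatibility region of chromosome 6, where the array carries features for alternative haplotypes, and the feature used was the brightest, named for the haplotype cox. Features named for 3 other haplotypes (dbb, mann and ssto) had the same values on each array. The feature named for chromosome 6 itself lay lower, between 6.81 and 7.09 in IκBα SR arrays and between 7.02 and 7.17 in vector arrays. Its log2 fold change was -0.15 (adjusted p = 0.41 from limma over all features with 1 symbol), so no feature of IER3 passed the test.

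**Figure D3:**
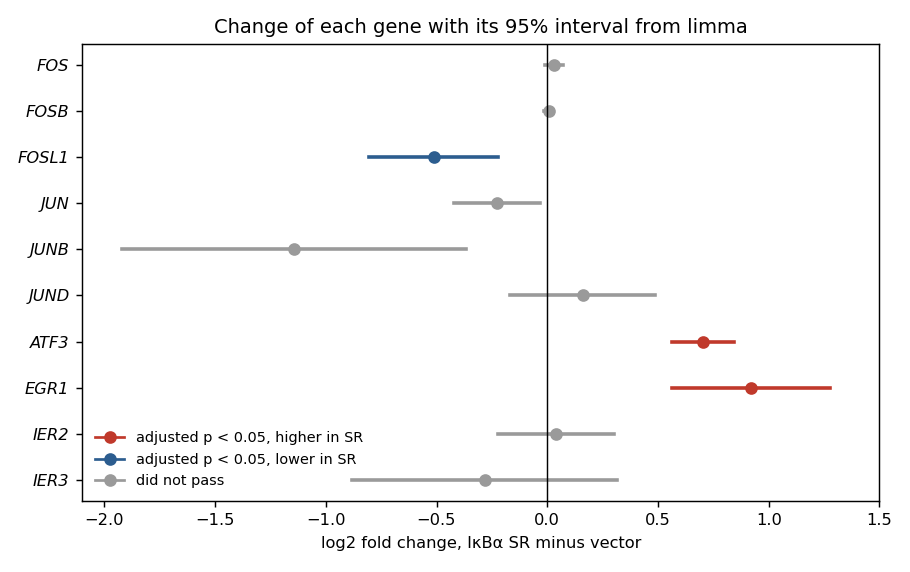
Log2 fold change (IκBα SR minus vector, x axis) of each of the 10 genes with its 95% interval from limma; red marks genes higher and blue genes lower at an adjusted p under 0.05, gray the rest. The interval of JUNB (-1.92 to -0.37) excludes 0 but is the widest, and its adjusted p of 0.069 missed the threshold.

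Of the 8 genes with different values on the 3 IκBα SR arrays (all but FOS and FOSB), replicate 1 was the lowest in 7 (EGR1, FOSL1, JUN, JUNB, JUND, IER2 and IER3), and ATF3 was the exception. Over all genes with different values, replicate 1 was the lowest of the IκBα SR arrays in 35.8%. Among 18 other immediate early genes with different values it was the lowest in 12. Vector replicate 3 was the lowest vector array in 17 of 24 other immediate early genes, beside 39.8% of all genes. Among the members with different values on the vector arrays, replicate 1 was the lowest in 6 of 9 genes, beside 34.0% of all genes. Genes measured on the same array share that array, so these counts describe the arrays and were not tested.

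The genes whose values over the 6 arrays were closest to those of EGR1, after subtraction of each gene's own mean, were UPP1 (uridine phosphorylase), RNFT1 and CYCS (cytochrome c). Their root mean square differences from EGR1 were 0.072, 0.085 and 0.089 on the log2 scale. Their log2 fold changes of 0.88, 0.83 and 0.94 follow from this choice and are a description only.

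Of 32 other immediate early genes listed, 30 were measured, of which 8 were higher in IκBα SR cells and 3 were lower, while 19 did not pass. This is 36.7% called, beside 18.3% of all genes, and the median log2 fold change was 0.06. Only 8 of the 30 lay below the median gene, whereas the share of all genes counts many dim genes. It is therefore not the share among genes of like level, here or for the lists below. The higher genes by smallest p were SGK1, a kinase induced by serum and glucocorticoids (1.61), KLF6 (0.19), the matricellular gene CCN2 (0.74) and the MAP kinase phosphatase DUSP1 (0.69). The other higher genes, named after their values were seen, were CCN1 (0.51), KLF2 (0.72), NR4A3 (0.70) and CSRNP1 (0.37). SGK1 had the same value of 8.003 on all 3 IκBα SR arrays, against 6.40, 6.39 and 6.40 in vector arrays, so its small p rests in part on a repeated value. Of the 20 neighbors of SGK1 on chromosome 6, 8 were higher and 2 were lower. The lower genes were the polo-like kinase PLK2 (-0.83), KLF10 (-0.88) and GEM (-0.42). Of 20 neighbors each on chromosome 8, 5 were also lower around KLF10 and 3 around GEM, and none was higher. Around PLK2 on chromosome 5, 3 were higher and 1 was lower. The part of these neighbors in the changes was not tested. MYC, the best known member, did not pass (log2 fold change -0.17, adjusted p = 0.37).

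Of 17 other bZIP partners listed, 14 were measured (28.6% called, median -0.02), and CREB5 (1.02) and CREM (0.14) were higher, FOSL2 and CREB1 (-0.12) were lower, while 10 did not pass. CREB5, which encodes a partner of Jun proteins, had 6.82, 6.68 and 6.60 in IκBα SR arrays, against 5.70, 5.55 and 5.79 in vector arrays. The groups lay about 1 log2 unit apart. Of its 20 neighbors on chromosome 7, 9 were higher and none was lower. ATF2 and ATF4 had log2 fold changes of -0.03 and -0.04 and did not pass.

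Upstream of these genes, 19 of 26 listed kinases and SRF factors were measured, with 7 higher, 2 lower and 10 that did not pass (47.4% called, median 0.02). RPS6KA2, a kinase activated by ERK (0.21), the MAP kinase kinases MAP2K4 (0.39) and MAP2K1 (0.31) and SRF were the higher genes with the smallest p. Of the 20 neighbors of MAP2K1 on chromosome 15, 9 were also higher and none was lower (median 0.295), and their part in its change was not tested. MRTFB, a coactivator of SRF (-0.38), and RPS6KA3 (-0.30) were lower. RPS6KA2, MAP2K1 and MRTFB each had 1 repeated value on all 3 IκBα SR arrays, and their small p rests in part on these. The other SRF factors did not move as one, since MRTFA (0.20) and ELK3 (0.13) were higher. The seventh higher gene was the kinase gene MAP2K5 (0.56), and these last 3 genes were named after their values were seen. MAPK8, which encodes the kinase JNK1 that phosphorylates JUN, did not pass (log2 fold change -0.27, adjusted p = 0.090).

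Feedback inhibitors of the MAP kinases, all 17 measured, were higher in 5 genes and lower in 1, with 11 that did not pass (35.3% called, median 0.04). The phosphatase genes DUSP16 (1.23), DUSP5 (0.71), DUSP1 and DUSP4 (0.27) were higher, as was SPRY1 (0.45, named after its value was seen), whereas SPRY2 was lower (-0.36). Around SPRY2 on chromosome 13, 6 of its 20 neighbors were also lower and none was higher, and their part in its change was not tested. DUSP4 lay below the median gene in both groups. Of 20 neighbors each, 10 were also higher around DUSP5 on chromosome 10 (1 was lower, median 0.20), 10 around DUSP4 on chromosome 8 (none was lower, median 0.245) and 5 around DUSP16 on chromosome 12 (1 was lower, median 0.08), and their part in these changes was not tested. DUSP1 also stands in the list of other immediate early genes. DUSP6, often used as a readout of ERK activity, had a log2 fold change of -0.01. It had the same value of 5.33 on all 3 vector arrays and on IκBα SR replicate 3, near the median gene (5.13). Nothing about ERK activity is therefore drawn from it. NAB2, a corepressor that EGR1 itself induces, did not pass (log2 fold change -0.38, adjusted p = 0.056).

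Genes known as AP-1 targets were called in both directions, with 2 higher, 5 lower and 11 that did not pass of 18 measured (38.9% called, median -0.03). The lower genes with the smallest p were MMP9, a gelatinase (-1.08), the adhesion receptor CD44 (-0.25), PLAUR, the urokinase receptor (-0.76), and the cytokine LIF (-0.47). The fifth, named after its value was seen, was IL6 (-0.24), which lay below the median gene in both groups. MMP9 had 4.53, 4.46 and 4.34 in IκBα SR arrays, against 5.44, 5.59 and 5.54 in vector arrays, so in IκBα SR arrays it lay below the median gene. Cyclin D1 (CCND1, 0.77) and ornithine decarboxylase (ODC1, 0.81) were higher. Of 20 neighbors each, 6 were higher and 1 was lower around CCND1 on chromosome 11, while around ODC1 on chromosome 2, 10 were lower and none was higher. Around PLAUR on chromosome 19, 4 were lower and none was higher. The part of these neighbors in the changes was not tested. Several of these genes, MMP9 and IL6 among them, are NF-κB targets as well, and the list does not separate both inputs. MMP1, MMP3, MMP13 and CXCL8 lay below the median gene in both groups and did not pass.

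**Figure D4:**
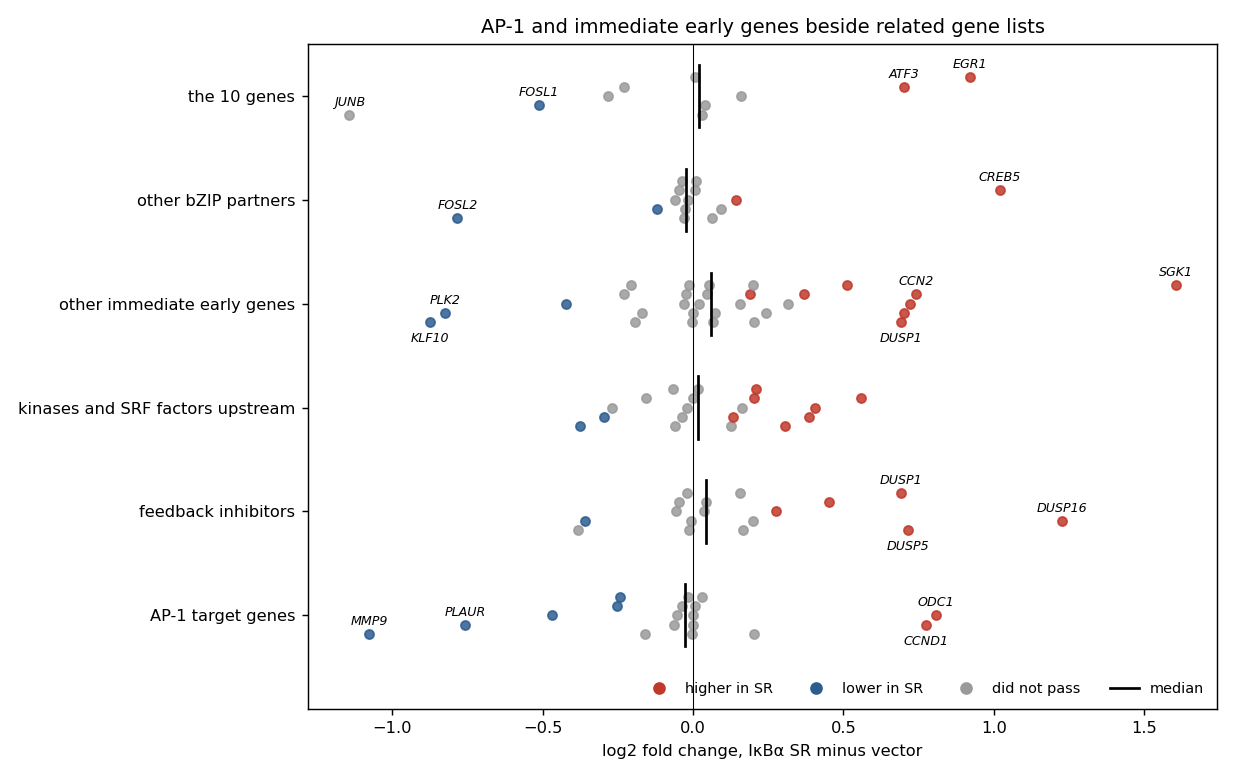
Log2 fold change (IκBα SR minus vector, x axis) of each measured gene of the 10 and of related lists; red and blue points passed the test as higher and lower, gray points did not, and the black lines are the medians. Every list holds changes in both directions around a median near 0, with SGK1 (1.61) and DUSP16 (1.23) highest and JUNB (-1.14) and MMP9 (-1.08) lowest.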

How the data were processed

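Gene expression was measured on Affymetrix Human Transcriptome Array 2.0 in 3 RH30-IκBα SR and 3 RH30 vector arrays. The deposited values are on the log2 scale and were made by the authors with RMA. The submitters' notes also name the Affymetrix Expression Console. For tool versions and the array's annotation build, the sources used here give nothing. Gene names came from the platform annotation, brought up to date with RefSeq (GRCh38.p14). Of 70523 features, 23781 had 1 symbol. The brightest feature per gene over all 6 arrays was kept, without a filter on level, which left 22411 genes. In 6153 genes the values within at least 1 group were identical. Precision is limited by the small number of arrays (3 in each group).

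The difference of IκBα SR and vector was fitted with limma 3.58.1 (lmFit, eBayes) in R 4.3.3, with Benjamini-Hochberg adjustment across the whole table and a threshold of 0.05. Single genes were also compared with an exact permutation test. The fit was tested on simulated data, and the alternatives are named with their effect at the end. Same-numbered arrays of both groups had correlations of their deviations from the group means of 0.118, -0.217 and -0.195. Arrays with different numbers had correlations between -0.198 and 0.306. The 3 deviations within a group depend on each other, so these values cannot decide whether the arrays are paired. The main fit used no pairing, and the replicate block is among the alternatives. The genes, lists and naming rule (all 10 genes, and up to 4 called genes per list and direction by smallest p) were chosen with earlier results of these data known, and TGACNTCA was chosen after the promoters had been read. Proteins were not used here.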

Additional observations from a re-analysis of the deposited data

How the results depend on the processing

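The 16 alternatives left out each array in turn (6 fits), removed dim genes (below the median gene) or genes with identical values in a group, normalized again (quantile) or centered arrays on their medians, averaged features or tested them singly, or changed the test (robust eBayes with a trend, array weights, the replicate block, the methods' t-test). For the 9 genes with 1 feature, averaging features or testing them singly used the same values, so these fits could hardly differ from the main fit. ATF3 passed the test in all 16 alternatives, with a log2 fold change from 0.67 to 0.74. EGR1 passed in 13 of 16 and ranged from 0.83 to 1.04 without single arrays. FOSL1 passed in 8 of 16. It was -0.49 with array weights (adjusted p = 0.053 from limma), and -0.51 with the replicate block (adjusted p = 0.20 from limma) and with the methods' t-test (adjusted p = 0.067) and did not pass in these, and it ranged from -0.60 to -0.45 without single arrays. JUNB passed in 5 of 16, at -1.16 after quantile normalization, -1.14 with median centering, -1.14 without dim genes and -1.14 without genes with identical values, and it ranged from -1.33 to -0.84 without single arrays. JUN ranged from -0.30 to -0.17 without single arrays and passed without IκBα SR replicate 3 (adjusted p = 0.037 from limma). FOS ranged from 0.021 to 0.046 and passed without vector replicate 2 (adjusted p = 0.015 from limma), where the remaining vector values lay below the repeated value. IER2 ranged from -0.034 to 0.14 and changed sign without IκBα SR replicate 3. FOS and FOSB gave values in 14 of the 16, since removing dim genes or genes with identical values leaves them out. The remaining genes passed in no alternative.

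Of the 10 genes, 2 were lower after quantile normalization, with median centering, without dim genes and without genes with identical values, and 0 with array weights, the replicate block and the methods' t-test (FOSL1, and JUNB where it passed). The methods' t-test gave p under 0.05 for 5 of the 10 before adjustment. Without single arrays 1 to 3 were higher and 0 to 2 lower. With the replicate block 2450 genes passed in all, against 4110 without it. The block then left 1 higher and 1 lower among other bZIP partners, 3 higher among other immediate early genes, 4 higher and 1 lower among upstream kinases and SRF factors, 2 higher and 0 lower among feedback inhibitors, 1 higher and 3 lower among AP-1 targets, and 1 higher heat shock gene. Lower feedback inhibitors numbered 2 after quantile normalization, median centering, without dim genes, with array weights and without genes with identical values, and 0 with the methods' t-test. Higher bZIP partners numbered 1 with median centering, and lower ones 1 after quantile normalization, with the methods' t-test and without genes with identical values, which also left 4 higher upstream genes. Without single arrays there were 1 to 2 higher and 1 to 2 lower bZIP partners, 5 to 7 higher and 1 to 3 lower upstream genes, 3 to 4 higher and 0 to 1 lower feedback inhibitors, 3 to 5 lower AP-1 targets and 1 to 3 higher heat shock genes. The replicate block and the fits without an array leave fewer residual degrees of freedom. The cause of the other differences was not tested.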

Other observations

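Heat shock genes, which also respond within minutes to stress and handling, were higher in 2 of 9 measured genes and lower in none (22.2% called, beside 18.3% of all genes), with a median log2 fold change of 0.04. This share is near that of all genes, though 0 of the 9 lay below the median gene. DNAJB1, a cochaperone of HSP70, had 11.94, 11.96 and 11.95 in IκBα SR arrays, against 11.02, 11.20 and 11.04 in vector arrays (log2 fold change 0.87, adjusted p = 9.0e-04). BAG3, another cochaperone, had a log2 fold change of 0.57, and 12 of its 20 neighbors on chromosome 10 were also higher. HSPA1A, an inducible HSP70 gene (log2 fold change -0.16, adjusted p = 0.58) and HSPH1 (log2 fold change -0.03, adjusted p = 0.59) did not pass the test.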
